A study of Mus musculus with 15 samples.

Results

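Expression of 7 genes was examined across 5 conditions of a bulk RNA-seq experiment on 4T1 cells. The genes are Hmga2, Hmga1, Igf2bp1, Igf2bp2, Igf2bp3, Lin28b and Sox9. They were listed together as oncofetal genes and let-7 targets, and the list alone does not make each a let-7 target. The 4T1 line is a mouse mammary carcinoma line used as a model of triple-negative breast cancer, and its genotype is labelled WT in every group. The groups were untreated cells and cells given an extract of blackberry (BLA) or blueberry (BLU), or gold nanoparticles prepared with blackberry (BLA-A) or with blueberry (BLU-A), with treatment starting 24 hours after seeding. The labels give no dose. The labels name 3 samples per condition, and the count table holds a column for each. Within a condition these columns were closer to each other than sampling noise, and the study's sequencing report lists their read files as subset reads, so they were averaged and counted as 1 sample, called a library here. Columns this close cannot serve as independent libraries, and whether several cultures fed 1 library is not settled by the sources used here. No test across samples was therefore run, the differences below have no replicate check, and the intervals cover counting error only. The 7 genes are rows of a table of 40402 genes, and 6 of the 7 were among the 17647 genes with at least 1 CPM (counts scaled to library size) in at least 1 library. Lin28b did not reach that level. The set was chosen by name and selected on measured values, namely the higher Hmga2 level in the treated libraries and the higher Sox9 level with BLA-A, so those differences are descriptions only.

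let-7 is a family of microRNAs that accumulates as cells differentiate and pairs, through bases 2 to 8 of the microRNA (the seed), with the 3′ untranslated regions (UTRs) of messenger RNAs. Many of its targets are oncofetal genes, which are active in the embryo, quiet in most adult tissues and active again in tumours. Hmga2 and Hmga1 encode small chromatin proteins that bind AT-rich DNA, the 3 Igf2bp genes encode RNA-binding proteins that protect and localise messenger RNAs, Lin28b encodes a protein that blocks the maturation of let-7 precursors, and Sox9 encodes a transcription factor of cartilage and of epithelial progenitor cells.

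The mature let-7 sequences are shown to make clear what the UTRs were searched for. They come from RefSeq (GRCm38.p6 gene records), are written from 5′ to 3′, and have the seed in capitals. The 10 members let-7a to let-7g, let-7i, let-7k and miR-98 carry the seed of let-7a, while let-7j has a different seed.
mmu-let-7a-5p: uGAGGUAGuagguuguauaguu
mmu-let-7g-5p: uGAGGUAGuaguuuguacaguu
mmu-miR-98-5p: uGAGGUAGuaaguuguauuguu
mmu-let-7j: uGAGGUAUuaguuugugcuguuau

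The reverse complement of the let-7a seed, CTACCTC, was searched on the transcribed strand of the longest 3′ UTR annotated for each coding gene (GENCODE M39, GRCm39). The 8-base form CTACCTCA contains the 7-base form and was counted within it. Of 20952 UTRs, 11.9% held at least 1 match of 7 bases and 3.97% at least 1 match of 8 bases. Hmga2 held 4 matches in 3021 bases, and 0.121% of 3303 UTRs of like length (within 20%) held as many. Igf2bp1 held 4 in 6337 bases and Lin28b held 4 in 4515 bases, as many as 0.209% and 0.0921% of UTRs of like length held. Hmga1, Igf2bp2 and Igf2bp3 held 1 match each, as 8.14%, 12.4% and 13.9% of UTRs of like length did at least. The Sox9 UTR of 2250 bases held none. Such matches describe the letters of these windows and are not measured sites.

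**Figure D1:**
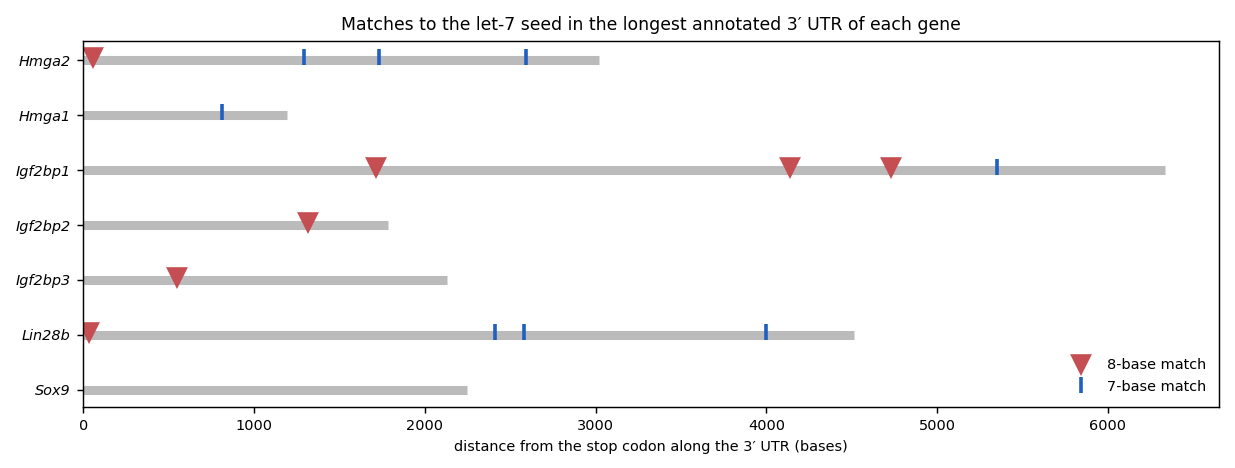
Position of the let-7 seed matches (8 bases, triangles; 7 bases, bars) along the longest annotated 3′ UTR of each of the 7 genes, as the distance in bases from the stop codon. Hmga2, Igf2bp1 and Lin28b carry 4 matches each, Hmga1, Igf2bp2 and Igf2bp3 carry 1 each and Sox9 carries none.

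The matches of Hmga2 and Igf2bp1 are printed because these genes have the same number of matches while their levels lay on opposite sides of the untreated level, and that of Igf2bp2 because it was the other gene above the untreated level in all treatments. Each stretch lies on the minus strand of GRCm39 and reads from 5′ to 3′ along the transcript, with the match in capitals. The Hmga2 stretches lie at chr10:120200129-120200151, chr10:120198892-120198914, chr10:120198454-120198476 and chr10:120197596-120197618, in the order given. Those of Igf2bp1 lie at chr11:95852604-95852626, chr11:95850183-95850205, chr11:95849589-95849611 and chr11:95848966-95848988, and that of Igf2bp2 at chr16:21878223-21878245.
Hmga2 match 1: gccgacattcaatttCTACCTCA
Hmga2 match 2: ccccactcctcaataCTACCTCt
Hmga2 match 3: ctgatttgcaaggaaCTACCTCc
Hmga2 match 4: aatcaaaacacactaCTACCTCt
Igf2bp1 match 1: gctgtgcgaagtaaaCTACCTCA
Igf2bp1 match 2: cagcagtgctattaaCTACCTCA
Igf2bp1 match 3: gtataaatggatgaaCTACCTCA
Igf2bp1 match 4: acttttggttttaatCTACCTCt
Igf2bp2 match 1: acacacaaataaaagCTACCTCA

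The 5 libraries held between 25613778 and 26956442 counts each, so that 3 counts, the floor used here, correspond to 0.109 to 0.129 CPM. Within each condition the columns lay closer together than sampling noise (chi-square per degree of freedom of 0.0951 to 0.475). The 15 columns carry different batch labels, so a batch cannot be told apart from a condition. Of 8 mammary epithelial markers, Krt8 and Krt18 were high in all libraries, Krt14 stood at 0.375 to 0.820 CPM and Krt5 was listed at 0. The summed level of these markers was 1722 CPM in BLA-A and 956 to 1281 CPM elsewhere. Summed leukocyte markers (9.24 to 11.2 CPM) and endothelial markers (2.93 to 7.02 CPM) were low, and the summed fibroblast markers (87.2 to 104 CPM) came almost wholly from Pdgfra. Lum and, outside BLU-A, Col3a1 were listed at 0. In bulk RNA a smaller share of cells expressing a gene and less RNA per cell cannot be told apart.

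Hmga2 had the most counts of the 7 genes in every library and was higher in every treated library than in untreated cells. The gene lies at chr10:120197173-120313095 on the minus strand and spans 116 kb, most of it introns. Its counts were 28056 in untreated, 71830 with BLA, 69317 with BLU, 42519 with BLA-A and 54596 with BLU-A cells. After TMM normalization these counts correspond to 1053, 2637, 2515, 1834 and 2060.0 CPM. The untreated library was the lowest, and both extracts lay above both nanoparticles. The ratio to untreated cells was 2.50 in BLA (95% counting interval 2.47 to 2.54), 2.39 in BLU (2.36 to 2.42), 1.74 in BLA-A (1.72 to 1.77) and 1.96 in BLU-A (1.93 to 1.99).

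Hmga2 was lower with nanoparticles than with the matching extract in both berries. It was chosen on its levels in these same treated libraries, so these ratios are descriptions only. The ratio of BLA-A to BLA was 0.696 (0.687 to 0.704) and that of BLU-A to BLU was 0.819 (0.810 to 0.828), which are log2 fold changes of -0.52 and -0.29 on CPM plus 0.5. Across scalings and filters the former ran from -0.68 with total counts to -0.44 with DESeq2 size factors. Genes spanning 100 kb or more at a mean of at least 100 CPM also had lower medians with nanoparticles. Their median log2 fold change against untreated cells was 0.46 with BLA, 0.22 with BLA-A, 0.41 with BLU and 0.23 with BLU-A. The part of gene span in the Hmga2 contrast was not tested. Hmga2 in BLA was slightly above BLU, at a ratio of 1.05 (1.04 to 1.06). BLA-A was below BLU-A at a ratio of 0.890 (0.879 to 0.902), a log2 fold change of -0.17 that ran from -0.35 with total counts to -0.08 with DESeq2 size factors.

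**Figure D2:**
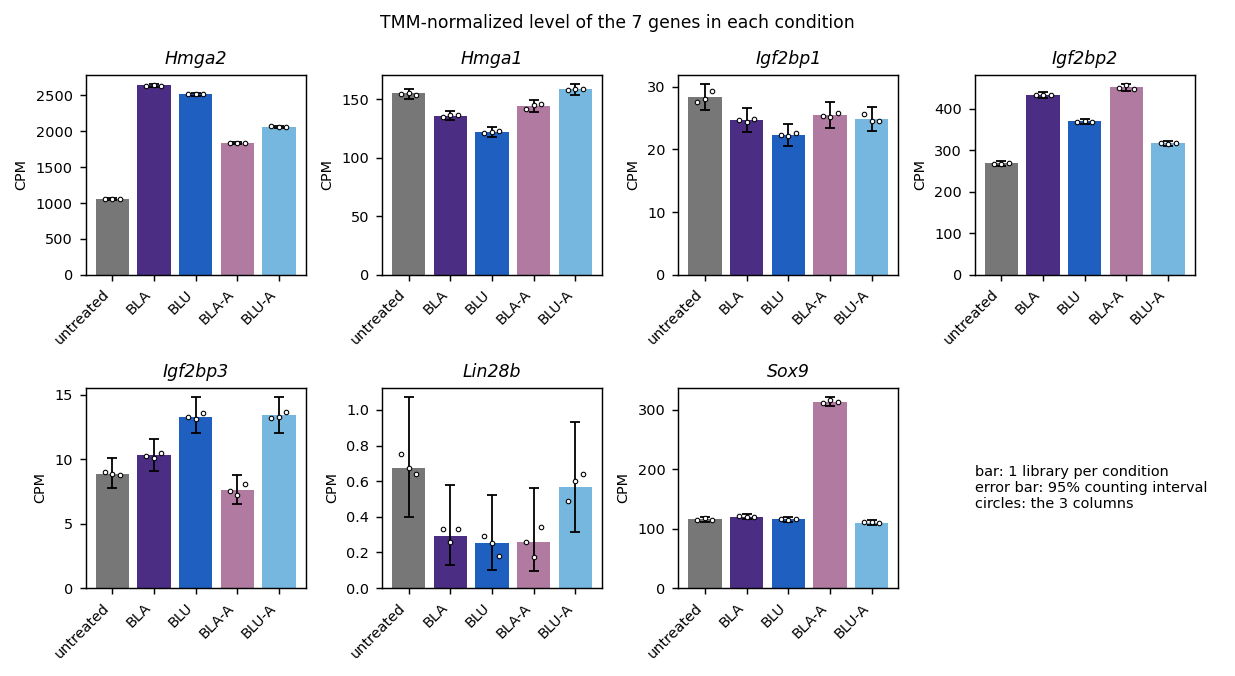
TMM-normalized level (CPM, axes from 0) of the 7 genes by condition. Bars show the 1 library of each condition, error bars its 95% counting interval and circles the 3 columns averaged for it. Hmga2 runs from 1053 CPM in untreated to 2637 CPM in BLA cells, and Sox9 stands at 314 CPM in BLA-A and at 110.4 to 120.1 CPM elsewhere.

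The table holds 3 long non-coding RNA genes that are annotated on the plus strand over Hmga2, and all 3 were higher in every treated library than in untreated cells. Gm51785, which lies within the Hmga2 gene, had 301 CPM in untreated, 887 with BLA, 859 with BLU, 546 with BLA-A and 704 with BLU-A cells. Its log2 fold changes against untreated cells were 1.55, 1.51, 0.86 and 1.22, in the order BLA, BLU, BLA-A and BLU-A. Those of 1700006J14Rik, which overlaps the 3′ end, were 1.90, 1.73, 0.93 and 1.41. Those of 9230105E05Rik were 1.54, 1.64, 1.54 and 1.09. The order of the treatments in the first 2 genes was that of Hmga2, while in 9230105E05Rik BLA-A was level with BLA and above BLU-A. Counts of Gm51785 were between 28.6% (untreated) and 34.2% (BLU-A) of the Hmga2 counts. The study's alignment reports list merged mates handled as single-end reads and counted by strand, so reads from Hmga2 and from these opposite-strand genes may not be fully told apart. The 3 genes were singled out after their values were seen, because of where they lie.

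**Figure D3:**
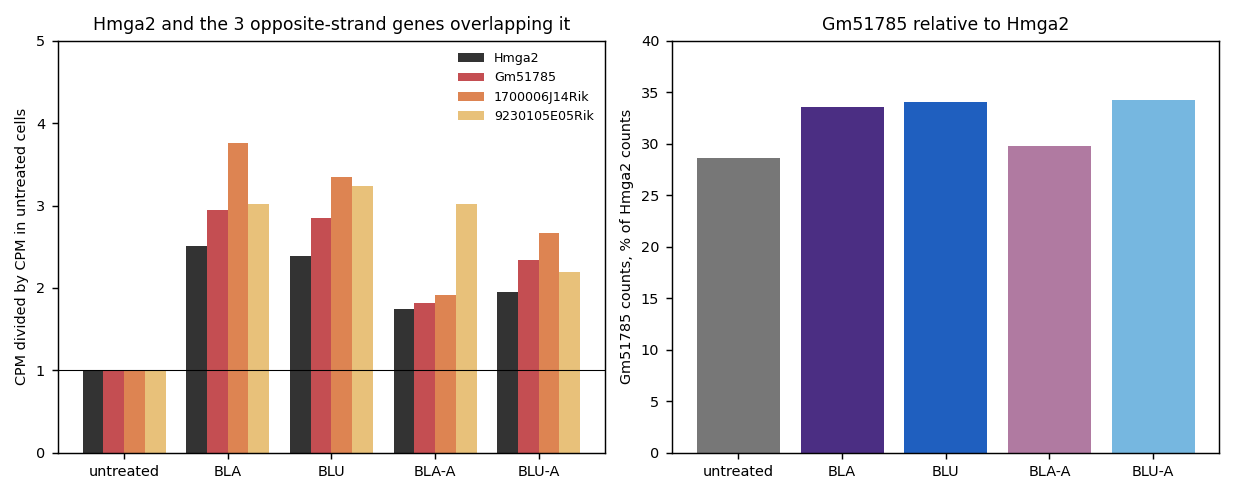
Left, CPM of Hmga2 and of the 3 long non-coding RNA genes annotated on the strand opposite to it, each divided by its own CPM in untreated cells (1 library per condition). Right, counts of Gm51785 as a percentage of Hmga2 counts, from 28.6% in untreated to 34.2% in BLU-A cells.

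Reads were counted over whole genes, introns included, and fold changes in BLA, BLU and BLU-A moved with gene span. The Hmga2 values are therefore set beside genes of like span and level. Among the 695 genes that span 100 kb or more at a mean of at least 100 CPM, the median log2 fold change was 0.46 with BLA, 0.41 with BLU, 0.22 with BLA-A and 0.23 with BLU-A. Among the 194 genes under 10 kb at that level it was -0.48, -0.36, 0.18 and -0.15. In BLA 89.9% of the long genes were above untreated cells, against 10.8% of the short ones, and in BLU-A 83.6% against 14.4%. BLA-A had no such trend at this level, with medians of 0.06 and 0.05 for the 2 classes in between, and over genes of all levels its medians ran the other way, from 0.17 under 10 kb to -0.21 at 100 kb or more. Of the 695 long genes, 18 had a higher log2 fold change than Hmga2 with BLA and 13 with BLU. In BLA-A 45 did and in BLU-A 10. Hmga2 was chosen for its higher level in the treated libraries, so these ranks are descriptions only. The part of gene span in the Hmga2 result was not tested beyond this grouping.

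**Figure D4:**
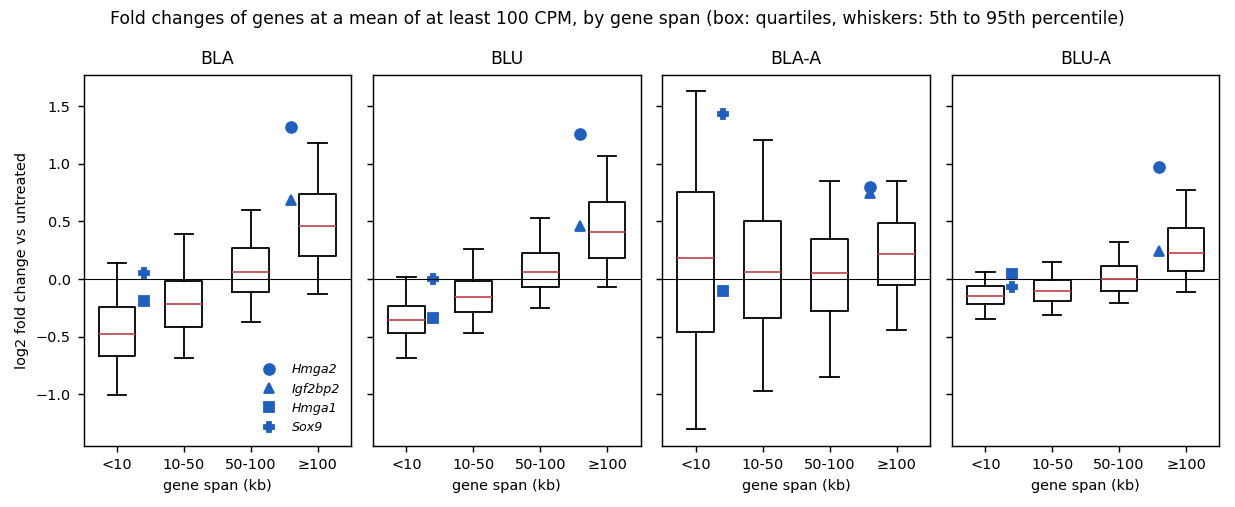
Log2 fold change against untreated cells in each treatment (CPM plus 0.5) of genes at a mean of at least 100 CPM, grouped by gene span in kb (boxes, quartiles; whiskers, 5th to 95th percentile). In BLA, BLU and BLU-A the median climbs with span, from -0.48, -0.36 and -0.15 to 0.46, 0.41 and 0.23. Hmga2 (circle), chosen for its level in treated libraries, lies above the whisker of its class in 3 of the 4 treatments.

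Within 1000 kb on either side of Hmga2, 18 other genes passed the filter, and their median log2 fold change was 0.17 with BLA, 0.18 with BLU, 0.25 with BLA-A and 0.21 with BLU-A. Past 2-fold higher were 3 of them with BLA, 4 with BLU, 2 with BLA-A and 3 with BLU-A. The 3 opposite-strand genes account for all 3 in BLA and in BLU-A and for 3 of the 4 in BLU. In BLA-A the 2 were 9230105E05Rik and Tmbim4. Past 2-fold lower were 3 with BLA, 1 with BLU, 2 with BLA-A and 1 with BLU-A. Over all genes 16.5%, 10.3%, 20.9% and 7.85% were past 2-fold in either direction, in the same order. Among protein-coding neighbours, Tmbim4 had a log2 fold change of 1.72 in BLA-A. Irak3 was past 2-fold lower in all 4 treatments, from 1.65 CPM in untreated cells to 0.399 with BLU and 0.528 with BLU-A, and to levels under the floor with BLA and BLA-A. Msrb3, on the promoter side of Hmga2, had log2 fold changes between -0.23 (BLA-A) and 0.68 (BLA). The genes whose 4 log2 fold changes were nearest to those of Hmga2, among 9764 genes at a mean of at least 10 CPM, were Gm52481, Lin52, Fars2, Gm52775 and Magi1, at Euclidean distances of 0.15 to 0.18. Magi1, a scaffold protein of cell junctions, had 356 CPM in untreated cells, 982 with BLA, 896 with BLU, 607 with BLA-A and 737 with BLU-A. These 4 differences share the untreated library.

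Hmga1, the paralog of Hmga2, did not follow it. It had 155 CPM in untreated cells, 136 with BLA, 122 with BLU, 144 with BLA-A and 159 with BLU-A, and the ratio to untreated cells was lowest in BLU, at 0.789 (0.754 to 0.826). BLU-A and untreated cells could not be separated by counting error, at a ratio of 1.03 (0.982 to 1.07). The nanoparticles lay above their extracts, with a ratio of 1.30 (1.24 to 1.36) for BLU-A to BLU and of 1.06 (1.01 to 1.11) for BLA-A to BLA. The last turns to a log2 fold change of -0.07 with total-count scaling. Hmga1 lies at chr17:27775449-27782648 and spans 7.20 kb. Of the 194 genes under 10 kb at a mean of at least 100 CPM, 40 had a higher log2 fold change than Hmga1 with BLA. With BLU 88 did, with BLA-A 119 and with BLU-A 14. The medians of that class were -0.48, -0.36, 0.18 and -0.15, in the order BLA, BLU, BLA-A and BLU-A. The part of gene span in the difference between Hmga1 and Hmga2 was not tested.

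The order of Hmga2 and Hmga1 depended on the length used. In untreated cells Hmga1 had 21.5 and Hmga2 9.08 CPM per kb of gene span, while per kb of annotated exon Hmga2 had 122 and Hmga1 33.5. In BLA Hmga2 had 22.7 CPM per kb of span, above the 18.9 of Hmga1.

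The 3 Igf2bp genes, which encode paralogous RNA-binding proteins, differed in level and in pattern. Per kb of annotated exon, Igf2bp2 had 33.3, Igf2bp1 2.75 and Igf2bp3 1.02 CPM in untreated cells. Since the counts include introns, the values per kb of gene span are given too, at 2.56, 0.578 and 0.0682 in the same order. Igf2bp2 had 268 CPM in untreated, 433 with BLA, 369 with BLU, 451 with BLA-A and 316 with BLU-A cells. All 4 treated libraries lay above the untreated one. Its ratio to untreated cells was 1.62 (1.57 to 1.67) with BLA, 1.38 (1.34 to 1.42) with BLU, 1.68 (1.63 to 1.74) with BLA-A and 1.18 (1.15 to 1.22) with BLU-A. None of these passed 2-fold. Igf2bp2 spans 105 kb, and in its class of 695 long genes at this level 211 had a higher log2 fold change with BLA, 308 with BLU, 62 with BLA-A and 337 with BLU-A, so in BLU and BLU-A it lay near the middle of that class.

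Igf2bp2 was higher in each blackberry library than in the matching blueberry library. The ratio of BLA to BLU was 1.17 (log2 interval 0.19 to 0.27) and that of BLA-A to BLU-A was 1.42 (1.38 to 1.47). The latter, a log2 fold change of 0.51, ran from 0.32 with total counts to 0.59 with DESeq2 size factors. BLA-A and BLA were near each other, at a ratio of 1.04 (1.01 to 1.07), while BLU-A was below BLU, at 0.857 (0.833 to 0.883).

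Igf2bp1 was below untreated cells in all 4 treatments, by little. It had 28.3 CPM in untreated, 24.6 with BLA, 22.3 with BLU, 25.4 with BLA-A and 24.9 with BLU-A cells. The ratio to untreated cells was 0.871 (0.783 to 0.967) in BLA, 0.787 (0.707 to 0.877) in BLU and 0.879 (0.790 to 0.977) in BLU-A. In BLA-A it was 0.898, with an interval of 0.805 to 1.00 that reaches no difference. The 4 treated libraries were not separated from each other by counting error in any of the 4 comparisons among them.

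Igf2bp3 had 8.89 CPM in untreated, 10.3 with BLA, 13.3 with BLU, 7.59 with BLA-A and 13.4 with BLU-A cells. The blueberry treatments lay above the others. Its log2 fold change against untreated cells was 0.56 in BLU and in BLU-A, with ratio intervals of 1.27 to 1.77 and 1.27 to 1.78. In BLA (1.16, 0.969 to 1.38) and BLA-A (0.854, 0.698 to 1.04) the interval spanned 1. The widest gap between treatments was that of BLA-A to BLU-A, a ratio of 0.568 (0.472 to 0.683), and BLU and BLU-A could not be separated, at 1.00 (0.864 to 1.16). The opposite-strand gene Malsu1, which overlaps the 3′ end of Igf2bp3, had 521, 684, 725, 393 and 782 counts in untreated, BLA, BLU, BLA-A and BLU-A cells, beside 237, 280, 367, 176 and 354 counts of Igf2bp3. Both genes were lowest in BLA-A and highest in the blueberry treatments. Its part in the Igf2bp3 values was not tested.

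Lin28b was near the floor in all conditions. Its mean counts were 18 in untreated, 8 with BLA, 7 with BLU, 6 with BLA-A and 15 with BLU-A cells. The ratio to untreated cells was 0.435 in BLA (0.164 to 1.05), 0.376 in BLU (0.133 to 0.944), 0.383 in BLA-A (0.125 to 1.01) and 0.838 in BLU-A (0.393 to 1.76). Only the BLU interval lay below 1. Lin28a, its paralog, had 2 counts in untreated and 1 in BLA-A cells and was listed at 0 in the others. Per kb of exon, Lin28b stood at 0.0701 CPM in untreated cells, against 122 for Hmga2, 33.3 for Igf2bp2, 2.75 for Igf2bp1 and 1.02 for Igf2bp3. Per kb of gene span it stood at 0.00614 CPM, against 9.08 for Hmga2, 2.56 for Igf2bp2, 0.578 for Igf2bp1 and 0.0682 for Igf2bp3.

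Sox9 stood apart with BLA-A. The gene lies at chr11:112673009-112678586 on the plus strand and spans 5.58 kb. It had 3086 counts in untreated, 3271 with BLA, 3188 with BLU, 7270 with BLA-A and 2927 with BLU-A cells, which correspond to 116, 120.1, 116, 314 and 110.4 CPM. The BLA-A library was the only high one. The ratio of BLA-A to untreated cells was 2.71 (2.60 to 2.83), while in BLA (1.04, 0.987 to 1.09), BLU (0.999) and BLU-A (0.954, 0.906 to 1.00) the interval reached no difference.

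The value with BLA-A was as far from the other treatments as from untreated cells. BLA-A had 2.61 times (2.51 to 2.72) the Sox9 level of BLA and 2.84 times (2.72 to 2.97) that of BLU-A. Since the BLA-A level was used to choose this gene, these ratios are descriptions too. BLA-A also had the lowest TMM factor, 0.905, against 1.01 to 1.03 in the other libraries. With total-count scaling its Sox9 log2 fold change against untreated cells was 1.24, against 1.43 with TMM, and the median over all genes moved by -0.18.

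BLA-A differed from the other treatments over short genes at large. Of the 194 genes under 10 kb at a mean of at least 100 CPM, 14.4% were past 2-fold higher in BLA-A, against 1.03% in BLA, and 17 of the 194 had a higher log2 fold change in BLA-A than Sox9. By base composition of the transcript, 16.0% of genes with 55% GC or more were past 2-fold higher in BLA-A and 3.04% of genes under 45% GC. For genes of 45% to under 50% GC, where Sox9 lies with 49.2%, the share was 4.73%. Of the 6 epithelial markers that passed the filter, 5 were above untreated cells in BLA-A and 1 was past 2-fold. Krt19 had 306 counts in untreated and 1044 in BLA-A cells, a log2 fold change of 1.93, and that of Cdh1, the E-cadherin gene, was 0.91. Epcam, an epithelial adhesion gene, went the other way, from 68.9 CPM in untreated to 39.7 CPM in BLA-A cells. The part of these differences in the Sox9 value was not tested.

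Most genes around Sox9 did not share its level in BLA-A. The 10 tested genes within 1000 kb had a median log2 fold change of 0.11 in BLA-A, and that of the nearest on the higher-coordinate side, 2610035D17Rik, was -0.19. Cog1, which encodes a Golgi complex subunit, was the only one past 2-fold higher in BLA-A, at 1.10, and had 0.01 with BLA and -0.26 with BLU. BC006965, annotated on the opposite strand over Sox9, had 16 to 45 counts. The genes nearest to Sox9 in their 4 log2 fold changes were Zfp358, Tmed2, Rnf126, Atp6v0e and Stom, at distances of 0.10 to 0.16. Tmed2, which encodes a receptor of vesicle transport, was at 21.9 CPM in untreated and 58.5 CPM in BLA-A cells.

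**Figure D5:**
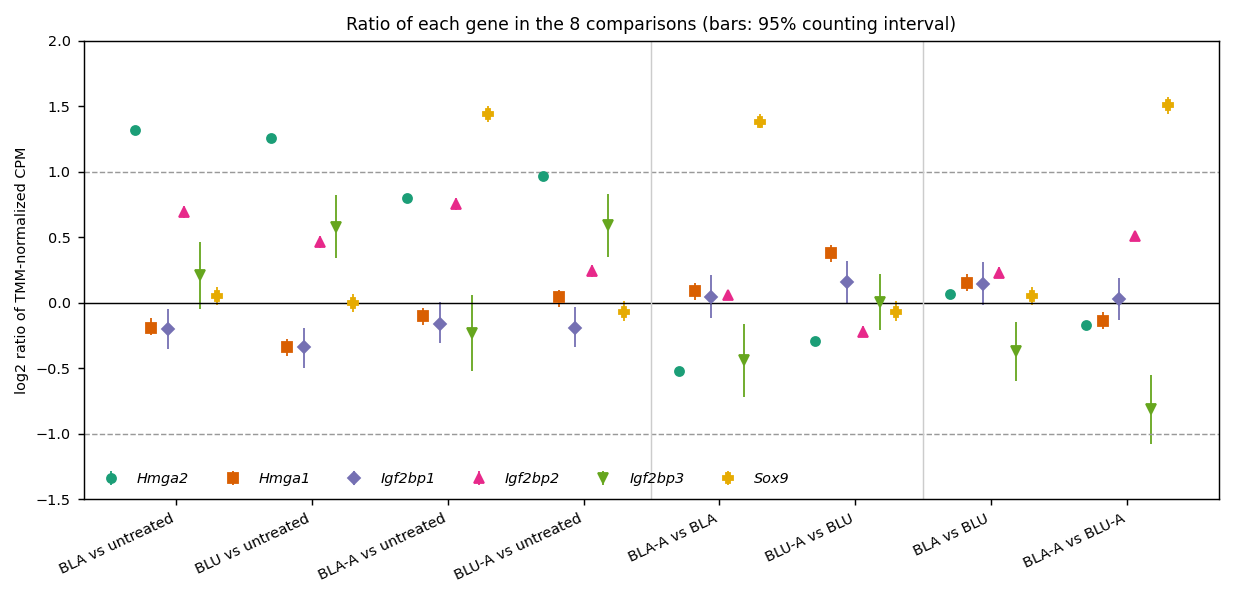
Log2 ratio of TMM-normalized CPM, with no pseudocount, of the 6 genes that passed the filter in the 8 comparisons (points, 1 library against 1 library; bars, 95% counting interval; dashed lines, 2-fold). Hmga2 passes 2-fold in BLA and BLU against untreated cells and Sox9 in the 3 comparisons with BLA-A as the numerator, and the points of the other genes stay inside the dashed lines, while the bar of Igf2bp3 in BLA-A against BLU-A (-1.08 to -0.55) crosses 1 of them.

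The calls among the 6 genes that passed the filter are given beside those among all genes. Past 2-fold (a log2 fold change over 1 in size) against untreated cells was Hmga2 in BLA, where 16.5% of 17647 genes were, and in BLU, where 10.3% were. It was Sox9 in BLA-A, where 20.9% of genes were past 2-fold, and no gene of the 6 in BLU-A, where 7.85% were. Sox9 was also the only one past 2-fold between BLA-A and BLA (24.5% of all genes) and between BLA-A and BLU-A (19.2%). None was between BLU-A and BLU (6.76%) or between BLA and BLU (10.6%). The calls against untreated cells, and those of Sox9 in BLA-A, rest on levels that were used to choose the genes, so nothing is read from them.

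Of the same 6 genes, Hmga2 and Igf2bp2 were higher than untreated cells in all 4 treatments, as 19.4% of all tested genes were, and Igf2bp1 was lower in all 4, as 19.3% were. The 4 treatments share the untreated library. Genes at a mean of at least 100 CPM passed 2-fold less often, with 4.67% with BLA, 2.38% with BLU, 9.47% with BLA-A and 0.738% with BLU-A. Hmga2, Hmga1, Igf2bp2 and Sox9 belong to that class of 2439 genes. The median log2 fold change of the 6 genes was 0.13 with BLA, 0.23 with BLU, 0.32 with BLA-A and 0.14 with BLU-A, beside -0.01, -0.01, -0.01 and 0.0015 over all genes. Hmga2 and Sox9 enter these medians and were chosen on the same levels, so nothing is read from the medians. The same holds for the place of Hmga2 among the genes higher in all 4 treatments.

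The let-7 genes themselves were not measured by these libraries. All 12 let-7 and Mir98 precursor genes in the table were listed at 0 in every library, which says nothing of the mature microRNAs, since libraries of this kind are not made to capture them. Of the host transcripts, 4 passed the filter. Mir100hg, which hosts let-7a-2, had 483 CPM in untreated, 861 with BLA, 807 with BLU, 295 with BLA-A and 719 with BLU-A cells, so that BLA-A lay below untreated cells and the other treatments above. Mir99ahg, which hosts let-7c-1, was at 1.80 CPM in untreated and 0.561 CPM in BLA-A cells (log2 fold change of -1.12, from 48 and 13 counts). Wdr82 and Huwe1, whose regions hold let-7g and let-7f-2 with Mir98, were within 2-fold in every treatment, at most 0.63 and 0.33 in BLA-A.

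Of 17 listed genes of microRNA processing and let-7 turnover 16 passed the filter, and none was past 2-fold in BLA, BLU or BLU-A. Smaller log2 fold changes were 0.72 for Prkra in BLA, 0.78 for Tarbp2 in BLU-A, and 0.62 for Khsrp and 0.52 for Dis3l2 in BLA-A. Ago4, which encodes an Argonaute protein, had 72 counts in untreated and 24 in BLA-A cells, a log2 fold change of -1.06. Trim71, itself a let-7 target and present in the target list too, had log2 fold changes between 0.12 (BLA) and 0.47 (BLU). The medians of the list were 0.09 with BLA, 0.20 with BLU, 0.08 with BLA-A and 0.01 with BLU-A.

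Other let-7 targets lay on both sides of the untreated level. Of 28 listed genes 26 passed the filter, and 11 were above untreated cells with BLA, 12 with BLU, 17 with BLA-A and 10 with BLU-A, with medians of -0.15, -0.01, 0.15 and -0.10. Nr6a1, an orphan nuclear receptor gene with 8 seed matches, the highest number in any UTR searched, had log2 fold changes of 1.31 with BLA, 1.29 with BLU, 0.88 with BLA-A and 0.80 with BLU-A, near those of Hmga2. Igf1r, the receptor for insulin-like growth factors, had values of 0.99, 0.84, 0.71 and 0.56 in the same order and did not pass 2-fold. Nr6a1 and Igf1r were not set beside genes of like span, and any part of let-7 or of gene span in their values was not tested. Arid3a was past 2-fold in BLA, at 1.59, and Hras in BLA-A, at 1.07. Ccnd1, which encodes cyclin D1, had log2 fold changes between -0.74 (BLA) and -0.04 (BLA-A).

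Across the transcriptome, median fold changes differed little between genes with and without seed matches. In BLA the median log2 fold change was -0.06 over 11672 genes without a match, -0.02 over 1932 genes with at least 1 and 0.02 over 271 genes with at least 2. In BLU these medians were -0.03, -0.01 and 0.0043, and in BLU-A -0.02, 0.01 and 0.02. In BLA-A they were -0.00027, 0.04 and 0.02. Among genes with a UTR of at least 2 kb the medians with and without a match were 0.02 and 0.00049 in BLA. The spans differed as well, with a median of 28.6 kb without and 35.2 kb with a match. These are descriptions over genes of single libraries.

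Other oncofetal genes were mostly low. Of 12 listed genes 6 passed the filter, and 1 was past 2-fold in any treatment. Tpbg, which encodes the 5T4 trophoblast glycoprotein, was at 44.4 CPM in untreated and 119.9 CPM in BLA-A cells, a log2 fold change of 1.42, and its log2 fold changes in BLA, BLU and BLU-A were -0.59, -0.25 and -0.21. H19, an imprinted fetal RNA, had 5.52 CPM in untreated cells and log2 fold changes between -0.61 (BLU) and 0.40 (BLU-A). Igf2 had 1 to 9 counts and Dlk1 0 to 7.

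The HMGB and HMGN genes, which encode other high mobility group chromatin proteins, mostly lay below untreated cells. All 8 listed genes, Tfam included, passed the filter. None was above untreated cells in BLA or BLA-A, with medians of -0.70 and -0.83, beside -0.01 over all genes in each. In BLU 2 and in BLU-A 1 of the 8 were above, with medians of -0.35 and -0.16. Past 2-fold in BLA-A were Hmgb2 (-2.51), Hmgn2 (-1.54), Hmgn1 (-1.25) and Hmgn5 (-1.08). Over all genes 20.9% were past 2-fold there, in either direction. The 8 genes were not set beside genes of like span, and the part of gene span in their values was not tested. Hmgb2, a gene of proliferating cells, was at 249 CPM in untreated, 149 with BLA, 194 with BLU, 43.4 with BLA-A and 253 with BLU-A cells. Total-count scaling moves values in BLA-A further down, by the -0.18 given above for the median gene.

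Listed genes of the Sox family and of Sox9-dependent cartilage did not pass 2-fold higher with Sox9 in BLA-A. Of 14 listed genes 6 passed the filter, and none was past 2-fold higher in any treatment. In BLA-A 2 of the 6 were above untreated cells, and the median was -0.62. Sox12 was 1 of these 2, at 8.93 CPM in untreated and 13.5 CPM in BLA-A cells (log2 fold change of 0.57). The cartilage genes that passed stood at 0.638 to 3.00 CPM in untreated cells, so they say little of Sox9 targets here. Sox6, a partner of Sox9 in cartilage, was at 3.45 CPM in untreated, 0.881 with BLA, 1.78 with BLU, 0.302 with BLA-A and 3.02 with BLU-A cells, with log2 fold changes of -1.52 in BLA and -2.30 in BLA-A. Col2a1, the type II collagen gene and a direct Sox9 target in cartilage, was at 3.00 CPM in untreated cells and past 2-fold lower in BLU (-1.60) and BLU-A (-1.14). Acan had 0 to 15 counts, and Sox4 and Sox11 were listed at 0 in all libraries.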

How the data were processed

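The authors deposited raw counts per gene for 40402 genes in 15 columns, 3 for each of 5 conditions of 4T1 cells. Per the study's methods and sequencing reports, ribosomal RNA was depleted, and the merged reads were aligned as single-end to GRCm39 with STAR and counted in OmicsBox by strand over RefSeq features of type gene, introns included, at a mapping quality of at least 10. The labels also list DESeq2 1.36.0. Intronic reads therefore add to the counts of long genes. The other deposited tables hold the authors' own fold changes, p-values and enrichment scores and were not used.

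Columns of a condition were averaged and rounded, because they differed by less than sampling noise (chi-square per degree of freedom under 1.5, genes with at least 10 counts). A gene was kept where any library had at least 1 CPM. Normalization was by TMM (edgeR 4.0.16, R 4.3.3), and 0.5 was added to CPM before log2 fold changes. Ratios carry exact conditional binomial intervals and levels exact Poisson intervals (scipy 1.17.1) at 95%, for counting error only. With 1 library per condition no test was run. Alternatives were total counts, DESeq2 1.42.0 size factors, pseudocounts of 1 and 0.1, 2 other filters and leaving out each column. The fold change script was tested on simulated data.

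Gene positions, spans, exons and UTRs came from GENCODE M39 (GRCm39), which held 92.9% of the genes kept, and let-7 sequences from RefSeq. Protein sequences were not used here. From the gene lists, genes are named that had at least 30 counts in 1 of the 2 libraries and passed 2-fold in a treatment, and otherwise for low or absent counts that define a list. Epcam, Prkra, Tarbp2, Khsrp, Dis3l2, Igf1r, Ccnd1, Trim71, H19, Cdh1, Wdr82, Huwe1, Mir100hg, Malsu1, Sox12 and the neighbours of Hmga2 and Sox9 were named with their values in view. The members and lists were chosen with earlier results of these data known. Some genes of these lists are not reported here by name.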

Additional observations from a re-analysis of the deposited data

Results flagged for a closer look

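Hmga2, Hmga1 and Igf2bp2 moved in opposite directions in the 2 berries or the 2 preparations, with counting intervals that exclude no difference on both sides. With 1 library per condition, none of these differences between effects was tested. Hmga2 was higher in BLA than in BLU, at a log2 fold change of 0.07, and lower in BLA-A than in BLU-A, at -0.17. Hmga1 did likewise, at 0.15 and -0.14. The latter became -0.05 with DESeq2 size factors and -0.06 with no filter, shifts larger than the distance of its interval (-0.20 to -0.07) from 0, so the crossing of Hmga1 rests on the scaling. Igf2bp2 was at 0.06 in BLA-A against BLA and at -0.22 in BLU-A against BLU. With total-count scaling that value of 0.06 became -0.10, so its sign rests on the scaling of the BLA-A library. Over all 17647 genes tested, 22.2% showed such a crossing for blackberry against blueberry and 15.6% for nanoparticles against their extract, so these 3 are not rare among genes. The cause was not tested.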

How the results depend on the processing

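The 8 counts of the 6 genes past 2-fold, 1 for each comparison, were the same under all 9 alternatives. Of 432 values of single genes under these alternatives, 380 stayed within the counting interval of the value reported, 52 moved outside it and 0 past 2-fold changed sign. All 52 came from another scaling or filter, which act through the normalization factors, and most concern BLA-A. Against untreated cells in BLA-A, Hmga2 ran from 0.61 (total counts) to 0.89 (no filter), Igf2bp2 from 0.56 to 0.84 and Sox9 from 1.24 to 1.53. Signs of small values changed with total counts for Hmga1, Igf2bp1 and Igf2bp2 in BLA-A against BLA (from 0.08, 0.04 and 0.06 to -0.07, -0.11 and -0.10) and for Igf2bp1 in BLA-A against BLU-A (from 0.03 to -0.15). With at least 10 counts in every library, the Igf2bp1 values changed sign as well, to -0.01 and -0.02. Sox9 in BLU against untreated cells and Igf2bp3 in BLU-A against BLU lay within 0.01 of 0 and changed sign under some alternatives. Leaving out 1 of the 3 columns moved no value outside its interval, but the columns differ by less than sampling noise, so this says nothing of biological spread. No paired analysis was possible because each condition was counted as 1 sample and no test was run. Lin28b, with 6 to 18 counts, is limited by depth.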
